A study of Mus musculus with 6 samples.

Results

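The 36 genes described here make up a list of cell cycle and DNA replication genes, read in the liver of mice fed 1 of 2 fractions of Boswellia serrata, the tree that yields Indian frankincense resin. The list was chosen by gene name, from the G1 cyclins to the mitotic kinases, to ask whether liver cells were dividing more or less on either diet. Each gene was read from Affymetrix probe sets that the platform annotation ties to that gene alone, and where a gene had several, the brightest by mean log2 signal was used. Of the 36 genes, 35 had such a probe set, out of 12393 genes on the array that did. Ccnb1, the cyclin B1 gene, had none and is not analysed here. The probe sets of 19 genes were bright enough to test, out of 9202 genes in all, and those of the other 16 were not.

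Total liver RNA from Swiss-Webster mice was read on 6 arrays. Of these, 2 (replicates a and b) came from mice given fraction 1, made with hexane, 2 (a and b) from mice given fraction 2, made with methanol, and 2 (replicates 1 and 2) from mice on the control diet. The fractions were fed at 1% of the diet over 21 days. The labels give no age, sex or time on the control diet, and they do not say whether an array held RNA of a single animal or a pool, so the p-values cover no more than the spread between these samples, which may be technical. Signals are the authors' linear intensities. Median signals were 139.2 to 167.2 over the 6 arrays, and the actin 3'/5' ratio, which climbs as RNA degrades, stood at 3.87 on control replicate 2, with 2.13 to 2.64 elsewhere. Fraction 2 replicate a and control replicate 1 were scanned in batch 2 and the other 4 arrays in batch 1, so no fraction 1 array lay in batch 2. The only control array in batch 1 was replicate 2, so values against control within batch 1 rest on that array. All 7 hepatocyte markers measured were bright, with albumin (Alb) between 18755.0 and 27250.4 on every array. In whole liver, fewer cells of a type and less RNA per cell cannot be told apart.

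Cells enter the division cycle when D-type cyclins with Cdk4, and then cyclin E with Cdk2, phosphorylate the retinoblastoma protein and free E2F factors, which switch on the genes for replication. Cdc6 loads the Mcm2 to Mcm7 helicase onto origins, PCNA clamps the polymerases to DNA, and ribonucleotide reductase, thymidylate synthase and thymidine kinase supply the nucleotides. Cyclin A and cyclin B with Cdk1 then drive mitosis, under Foxm1 and a second wave of transcription. Hepatocytes of an adult liver are mostly quiescent, and they re-enter this cycle after loss of liver mass.

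Replication and mitosis genes are known for promoters that carry E2F sites, CHR elements and CCAAT boxes. RefSeq promoter stretches (GRCm38.p6, from 250 bases before to 50 after the start) were at hand for 28 of the 36 genes, 29 promoters in all. On either strand, an exact match to TTTCGCGC, TTTGGCGC, TTTCCCGC or TTTGCCGC, taken as E2F letters, lay in 7 of the 29 promoters (24.1%), against 2.26% of all 32851 promoters. TTTGAA, taken for the CHR element, lay in 10 of the 29 (34.5%), against 17.9% of all, and CCAAT lay in 22 (75.9%), against 37.4%. The E2F letters were in 5 of the 8 promoters of the licensing and fork genes and in 0 of the 7 of the mitotic kinases, checkpoint and exit genes. TTTGAA showed the other order, with 1 of those 8 and 5 of those 7. A match describes the letters only. The Mcm5, Mcm6, Cdk1 and Cdc20 promoters are shown to set both kinds side by side, each as the 160 bases before the start, on the gene's own strand and 5′ to 3′, with every match in capitals on whichever strand it lies. In Mcm5 and Mcm6 a forward and a reverse E2F match overlap in 1 capital run.
Mcm5, helicase subunit, chr8:75109349-75109508, plus strand: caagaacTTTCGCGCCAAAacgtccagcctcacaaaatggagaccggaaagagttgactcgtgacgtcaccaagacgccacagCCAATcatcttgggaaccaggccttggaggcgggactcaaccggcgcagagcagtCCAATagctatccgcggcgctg
Mcm6, helicase subunit, chr1:128359706-128359865, minus strand: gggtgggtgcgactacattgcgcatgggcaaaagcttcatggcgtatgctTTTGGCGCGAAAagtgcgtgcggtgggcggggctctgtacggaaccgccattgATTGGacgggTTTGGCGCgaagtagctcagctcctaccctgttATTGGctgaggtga
Cdk1, mitotic kinase, chr10:69352913-69353072, minus strand: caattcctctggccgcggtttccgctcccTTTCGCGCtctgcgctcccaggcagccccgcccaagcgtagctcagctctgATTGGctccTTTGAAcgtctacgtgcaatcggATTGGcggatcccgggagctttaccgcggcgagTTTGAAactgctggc
Cdc20, activator of mitotic exit, chr4:118437344-118437503, minus strand: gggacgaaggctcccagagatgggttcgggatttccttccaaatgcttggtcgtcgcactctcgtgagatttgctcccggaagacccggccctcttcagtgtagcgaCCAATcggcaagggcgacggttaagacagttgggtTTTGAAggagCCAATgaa
Mcm5, Mcm6 and Cdk1 were among the genes too dim to test, and Cdc20 was tested.

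No member changed past the threshold in any comparison. By limma with Benjamini-Hochberg adjustment over 14755 probe sets, 0 of the 19 tested genes passed an adjusted p of 0.05 in fraction 1 livers against control livers, where 0.712% of all tested probe sets did. The count was 0 of 19 in fraction 2 livers against control livers (0.108% of all) and 0 of 19 in fraction 1 against fraction 2 livers (0.0136% of all). At an unadjusted p under 0.05, 5 genes stood out in fraction 1 against control livers, against a background of 12.4%. Of these, E2f1 was higher (5.92% of all probe sets were) and Ccnd1, Ccnd2, Ccne1 and Tk1 were lower (6.48% of all). In fraction 2 against control livers 1 gene did, Tk1, lower (background 6.95%, and 3.56% lower), and in fraction 1 against fraction 2 livers 2 did, Ccnd1 and Stmn1, both lower (background 8.04%, and 4.18% lower). The lowest adjusted p of a member was 0.124, 0.706 and 0.475 in the 3 comparisons in that order. The 2 comparisons against control share the same control arrays.

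In the reported fit the medians of the tested members lay close to those of all tested probe sets. Their median log2 fold change was -0.09 in fraction 1 against control livers, beside -0.02 over all tested probe sets. It was -0.04 in fraction 2 against control livers, equal to the median of all (-0.04), and -0.01 in fraction 1 against fraction 2 livers, beside 0.02. In fraction 1 against control livers 10 of the 19 lay below 0, where 52.8% of all tested probe sets did. In fraction 2 against control livers it was 12 of 19 (55.4% of all), and in fraction 1 against fraction 2 livers 10 of 19 (47.7% of all). Both arrays of fraction 1 livers lay above both controls for 3 of the 19 (18.8% of all tested probe sets) and below for 6 (22.1%). Both arrays of fraction 2 livers lay above both controls for 4 (14.8% of all) and below for 5 (20.4%). Fraction 1 lay above fraction 2 without overlap for 3 (25.4% of all) and below for 5 (21.4%). Single genes ranged from -1.15 to 1.03 in fraction 1 against control livers, and from -0.55 to 0.80 in fraction 2 against control livers. The signals of all 35 members summed to 8530.5 and 8848.1 at the ends of the fraction 1 range, 8729.4 and 9384.4 for fraction 2, and 9510.8 and 10301.3 for control livers. This linear sum is weighted to the brightest members, such as Pcna, Cks2 and Tk1. The median log2 difference over all 35 was 0.01 in fraction 1 and -0.13 in fraction 2 against control livers. Over all probe sets without a filter it was -0.02 and -0.07.

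**Figure D1:**
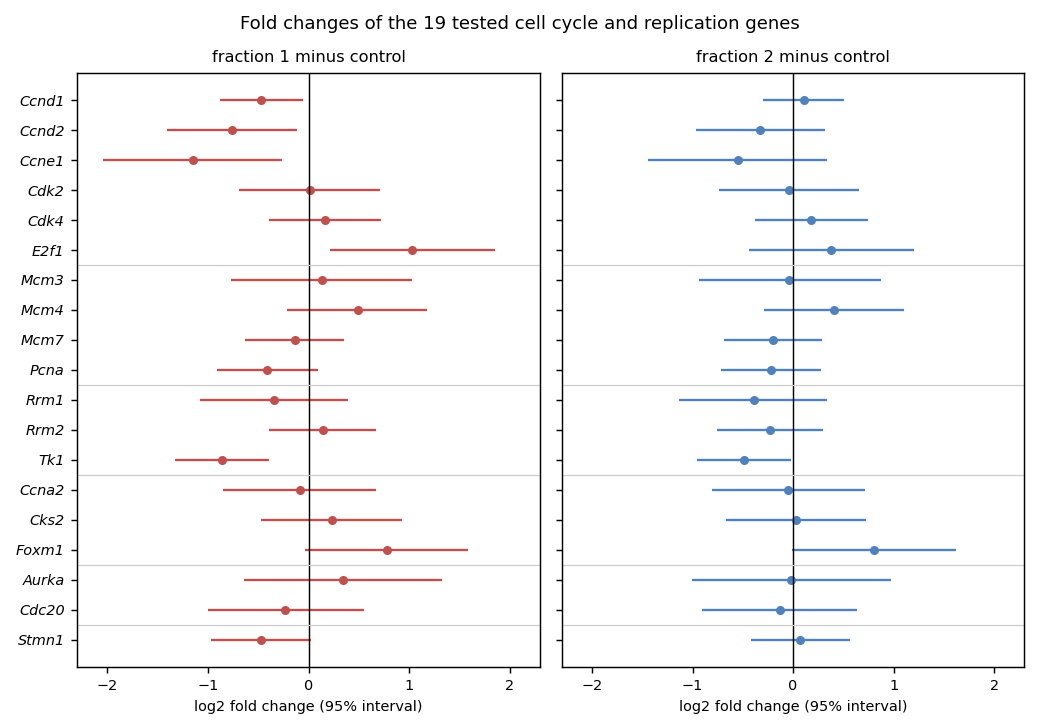
Log2 fold changes (horizontal axis) of the 19 tested members, grouped by role, for fraction 1 against control and fraction 2 against control. Grey lines part the roles, points are limma estimates over 2 arrays a group and bars are 95% intervals; Tk1 lies lowest relative to its error in fraction 1 against control livers, at -0.86 with an interval of -1.33 to -0.39.

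**Figure D2:**
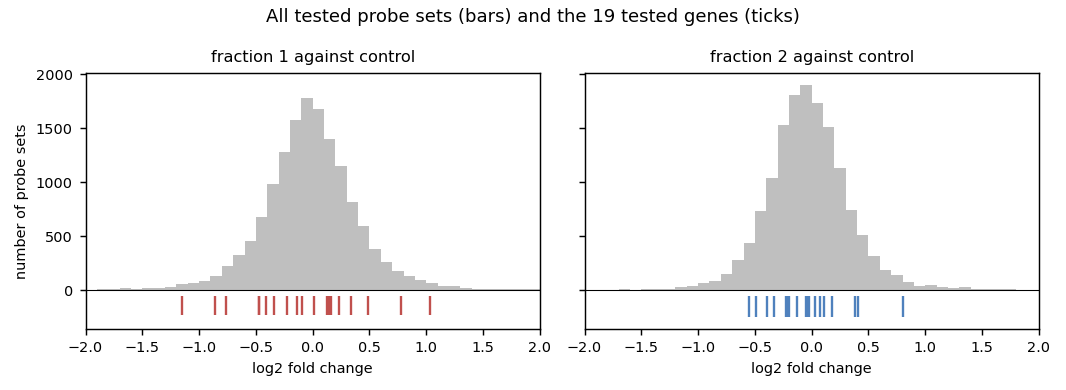
Number of tested probe sets (vertical axis, grey bars, 14755 in all) by log2 fold change (horizontal axis, drawn from -2 to 2), with the 19 tested members as ticks below the axis, for fraction 1 against control and fraction 2 against control. The members' medians of -0.09 and -0.04 lie close to those of all probe sets, at -0.02 and -0.04, and the ticks run from -1.15 to 1.03 and from -0.55 to 0.80.

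The G1 cyclins hold most of the members with low p-values in fraction 1 livers. Ccnd1 encodes cyclin D1, a cyclin known to rise when hepatocytes leave quiescence. It read 563.6 and 558.1 in fraction 1 livers, 806.3 and 885.2 in fraction 2 livers, and 770.4 and 798.6 in control livers. Both fraction 1 arrays lay below every control array and both fraction 2 arrays above. In log2 terms Ccnd1 was at -0.47 ± 0.18 (SE) in fraction 1 against control livers, with an unadjusted p of 0.0282 and an adjusted p of 0.324 by limma. In fraction 2 against control livers it was 0.11, with a 95% interval of -0.30 to 0.51, and in fraction 1 against fraction 2 livers it was -0.58 ± 0.18 (adjusted p = 0.475 by limma). Within scan batch 1 the fraction 1 value against control was -0.50. A second Ccnd1 probe set gave -0.34 in fraction 1 against control livers and the dimmest gave -0.15 (adjusted p = 0.537 and 0.891 by limma). In fraction 2 against control livers the same probe sets gave 0.03 and -0.25, so neither put both fraction 2 arrays above control.

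Ccnd2 encodes cyclin D2, another partner of Cdk4. It read 280.7 and 287.6 in fraction 1 livers, 325.8 and 465.9 in fraction 2 livers, and 380.1 and 637.8 in control livers. The fraction 1 arrays were the lowest, and the control arrays differed widely. Ccnd2 had a log2 fold change in fraction 1 against control livers of -0.76 ± 0.28 (adjusted p = 0.312 by limma), at -1.12 within scan batch 1 and -0.40 without control replicate 2. The next brightest Ccnd2 probe set did not share the direction, at 0.03, and a further pair of tested probe sets gave -0.03 and -0.28.

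Ccne1 encodes cyclin E1, which drives entry into S phase with Cdk2. It read 42.7 and 92.3 in fraction 1 livers, 113.2 and 97.1 in fraction 2 livers, and 158.9 and 163.3 in control livers. The 3 groups did not overlap, and both fraction 1 arrays were below the brightness that the filter asks for. Ccne1 had a log2 fold change of -1.15 ± 0.39 in fraction 1 against control livers (adjusted p = 0.265 by limma) and -0.55 ± 0.39 in fraction 2 against control livers (adjusted p = 0.797). Without fraction 1 replicate a the fraction 1 value was -0.71. Ccne2, the cyclin E2 gene, was too dim to test, at 40.6 to 55.2 over the 6 arrays.

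E2f1, the factor these kinases free, lay the other way. It read 134.3 and 156.3 in fraction 1 livers, 95.8 and 77.7 in fraction 2 livers, and 64.7 and 60.9 in control livers. The groups did not overlap, but no control array reached the filter brightness, so the gene was tested only because of the fraction arrays. E2f1 had a log2 fold change of 1.03 ± 0.36 in fraction 1 against control livers (unadjusted p = 0.0199, adjusted p = 0.277 by limma), and 0.38 in fraction 2 against control livers with an interval of -0.44 to 1.20. The other E2f1 probe set was too dim to test and did not show this order, with 13.8 and 15.8 in fraction 1 livers, 50.4 and 15.9 in fraction 2 livers, and 39.0 and 10.9 in control livers. Of the kinases, Cdk2 gave 0.01 in fraction 1 against control livers and Cdk4 gave 0.16. The other Cdk4 probe sets, given after their values were seen, had 0.53 and 0.35 in fraction 1 against control livers (adjusted p = 0.300 and 0.554 by limma). In fraction 2 against control livers they had 0.31 and 0.42 (adjusted p = 0.787 and 0.747), beside 0.18 on the brightest. On both of them every fraction array lay above both controls.

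**Figure D3:**
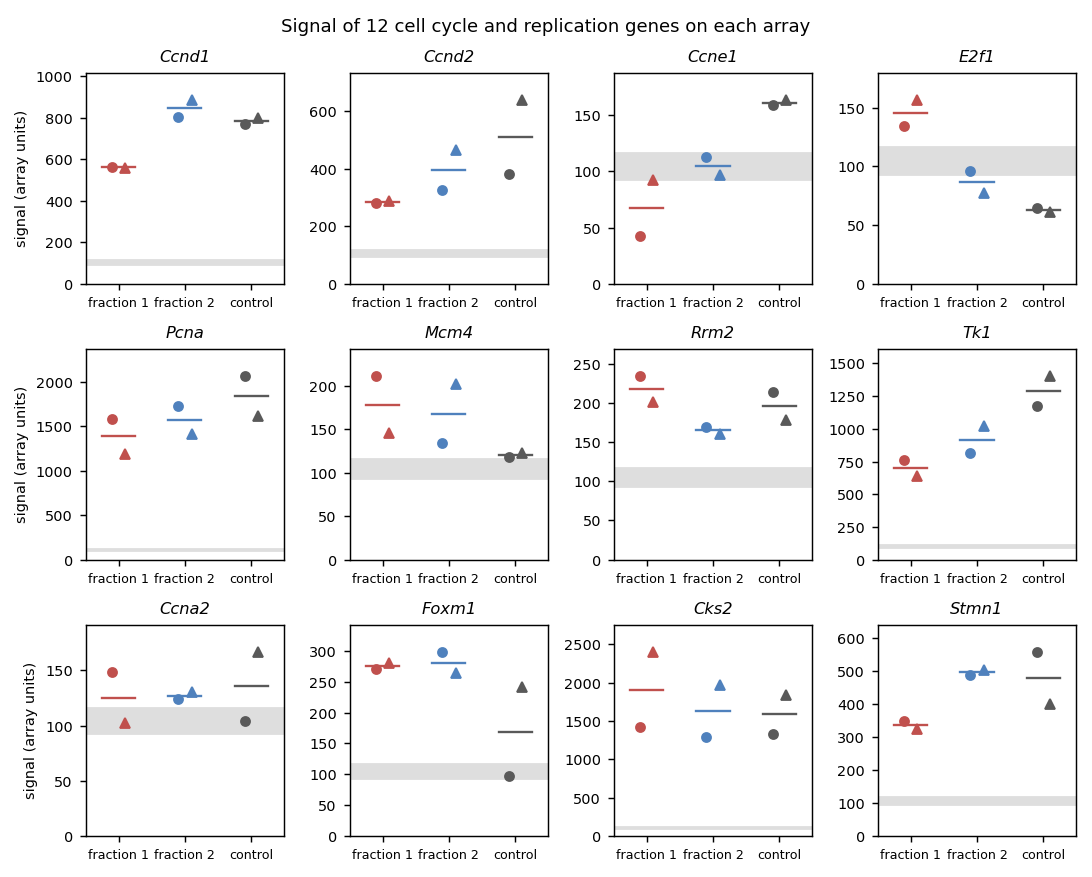
Signal (linear array units, vertical axis) of single members on each of the 6 arrays, with fraction 1 left, then fraction 2, then control. Circles are replicates a or 1, triangles replicates b or 2, bars the group means, and the grey band the 40th percentile of the arrays, 92.5 to 116.3; Tk1 and Ccnd2 show their lowest arrays in fraction 1 livers, and E2f1 its highest.

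Among the licensing and fork genes, Pcna was bright on every array. It read 1584.3 and 1184.2 in fraction 1 livers, 1722.5 and 1411.4 in fraction 2 livers, and 2059.9 and 1612.5 in control livers. Every fraction 1 array was below both control arrays, while the fraction 2 arrays overlapped them. Pcna had a log2 fold change of -0.41 in fraction 1 against control livers, with an interval of -0.91 to 0.09, and -0.22 in fraction 2 against control livers, from -0.72 to 0.28. Leaving out 1 array moved the fraction 1 value to -0.20 (without fraction 1 replicate b), -0.23 (without control replicate 1) or -0.62 (without fraction 1 replicate a), and chip lot as a block gave -0.19. In fraction 2 against control livers the range without 1 array was -0.40 to -0.05. The 3 other tested genes of this group, the helicase subunits Mcm3, Mcm4 and Mcm7, lay between -0.14 and 0.49 in fraction 1 against control livers and between -0.20 and 0.41 in fraction 2 against control livers. Mcm4, chosen after its values were seen, read 211.2 and 145.5 in fraction 1 livers, 134.7 and 202.0 in fraction 2 livers, and 118.4 and 123.1 in control livers, above control on all 4 fraction arrays. Its value in fraction 1 against control livers was 0.24 without fraction 1 replicate a, and in fraction 2 against control livers 0.14 without fraction 2 replicate b.

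The other helicase genes and the loader Cdc6 were too dim for a test. Mcm2 read 47.4 and 94.0 in fraction 1 livers, 67.0 and 58.8 in fraction 2 livers, and 67.0 and 41.6 in control livers. Mcm5, whose promoter is printed above with its E2F letters, read 70.2 and 88.4 in fraction 1 livers, 66.3 and 70.1 in fraction 2 livers, and 75.6 and 84.0 in control livers. In Mcm2 and Mcm5 the fraction 1 and control arrays overlapped. Mcm6 lay between 43.5 and 109.1, with both ends of that range outside fraction 1 livers, and Cdc6 between 3.5 and 13.6.

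Thymidine kinase 1, the salvage enzyme that makes thymidine monophosphate and that falls to low levels outside S phase, had the smallest p of any member. Tk1 read 763.5 and 639.9 in fraction 1 livers, 815.5 and 1020.8 in fraction 2 livers, and 1177.3 and 1401.5 in control livers. The groups did not overlap, with fraction 1 lowest and control highest. Tk1 had a log2 fold change of -0.86 ± 0.21 in fraction 1 against control livers (unadjusted p = 0.0027, adjusted p = 0.124 by limma) and -0.49 ± 0.21 in fraction 2 against control livers (unadjusted p = 0.0444, adjusted p = 0.706). Within batch 1 these were -0.99 and -0.45, and within batch 2 the fraction 2 value was -0.52. With scan batch as a block the adjusted p for fraction 1 against control was 0.0593 by limma, still above the threshold. Between the fractions it was -0.38, from -0.85 to 0.09.

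No call was made for the other 3 genes of nucleotide supply. Rrm2, the S-phase subunit of ribonucleotide reductase, read 233.8 and 201.2 in fraction 1 livers, 168.9 and 160.7 in fraction 2 livers, and 214.1 and 178.7 in control livers. Fraction 1 overlapped control and both fraction 2 arrays lay below it, at log2 fold changes of 0.14 and -0.23 against control (adjusted p = 0.880 and 0.840 by limma). Rrm1, the large subunit, gave -0.34 and -0.39. Tyms, which makes thymidylate from deoxyuridylate, was too dim to test, at 26.3 to 118.2 with its highest array control replicate 2.

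The genes of entry into mitosis were mixed in brightness. Ccna2, the cyclin A2 gene, read 148.7 and 101.9 in fraction 1 livers, 124.0 and 130.5 in fraction 2 livers, and 104.5 and 166.5 in control livers. All groups overlapped, with log2 fold changes of -0.09 in fraction 1 and -0.05 in fraction 2 against control livers. On the next brightest Ccna2 probe set every fraction array lay below both controls, at -0.45 and -0.29 (adjusted p = 0.664 and 0.862 by limma). Both fraction 1 arrays were below the filter brightness on it. Cdk1, the mitotic kinase whose promoter is printed above, was too dim to test, at 54.4 and 31.9 in fraction 1 livers, 50.8 and 32.1 in fraction 2 livers, and 93.0 and 47.7 in control livers. Foxm1, the transcription factor of the mitotic genes, chosen after its values were seen, read 270.3 and 280.0 in fraction 1 livers, 297.9 and 264.2 in fraction 2 livers, and 96.5 and 240.8 in control livers. Its log2 fold changes were 0.78 ± 0.36 and 0.80 ± 0.36 against control (adjusted p = 0.433 and 0.733 by limma), with the 2 control arrays far apart. Without control replicate 1 they were 0.18 and 0.21, and without control replicate 2 they were 1.37 and 1.40. On the next brightest Foxm1 probe set every fraction array lay above both controls (72.9 and 86.2), at 0.35 and 0.70 (adjusted p = 0.740 and 0.747 by limma). No control array reached the filter brightness on it. Cks2, a small subunit of the Cdk complexes, was among the brightest members at 1294.8 to 2397.6, and all its groups overlapped, at 0.23 in fraction 1 against control livers. The other Cks2 probe set differed, with 1411.4 and 2132.9 in fraction 1 livers, 1085.3 and 1579.3 in fraction 2 livers, and 921.6 and 1143.6 in control livers. Both fraction 1 arrays lay above both controls on it, at 0.75 ± 0.26 (unadjusted p = 0.021, adjusted p = 0.283 by limma). Ccnb2, the cyclin B2 gene, was dim at 14.6 to 83.8.

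Of the mitotic kinases, the spindle checkpoint and mitotic exit, only Aurka and Cdc20 were tested. Aurka, a spindle pole kinase, gave 0.34 and -0.02 in fraction 1 and fraction 2 against control livers, with intervals from -0.64 to 1.33 and from -1.01 to 0.97. Each of these intervals reaches past a 2-fold change on 1 side. Cdc20 gave -0.23 and -0.13 (adjusted p = 0.854 and 0.942 by limma). Aurkb, Plk1, Birc5, Bub1, Bub1b and Ube2c were too dim to test, the brightest array being control replicate 2 for Aurkb at 138.2 and the dimmest control replicate 1 for Ube2c at 4.3.

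The classical markers of dividing cells were close to the bottom of the scale. Mki67, which encodes the Ki-67 antigen of cycling cells, read 7.8 and 11.8 in fraction 1 livers, 6.2 and 10.2 in fraction 2 livers, and 12.7 and 35.9 in control livers, where the 40th percentile of an array was 92.5 to 116.3. Top2a, the topoisomerase that untangles sister chromatids, read 54.7 and 66.9 in fraction 1 livers, 33.7 and 35.0 in fraction 2 livers, and 37.5 and 84.4 in control livers. Neither gene can be tested at these signals. Stmn1, the microtubule regulator stathmin, was brighter, at 347.8 and 323.0 in fraction 1 livers, 487.4 and 504.7 in fraction 2 livers, and 556.9 and 398.5 in control livers. Both fraction 1 arrays lay below all others. The log2 fold change was -0.47 ± 0.22 in fraction 1 against control livers (adjusted p = 0.432 by limma) and -0.54 ± 0.22 in fraction 1 against fraction 2 livers (unadjusted p = 0.0351, adjusted p = 0.594). Against control, the fraction 1 value was -0.24 without control replicate 1 and -0.71 without control replicate 2.

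Over the 16 dim members, only 3 readings reached the 40th percentile of their array, all on control arrays: Mcm6 on replicate 1 and Tyms and Aurkb on replicate 2. In fraction 2 livers both arrays lay below both controls for 6 of the 16 (Cdc6, Mcm5, Tyms, Aurkb, Mki67 and Top2a) and above for 0, beside 22.6% below and 9.5% above over all 7871 dim probe sets. In fraction 1 livers Cdc6 and Mki67 lay below both controls and Ccnb2 and Bub1 above, beside 16.2% below and 14.2% above over all dim probe sets. Fraction 1 lay above fraction 2 without overlap for 7 of the 16 and below for 0, beside 27.5% above and 11.1% below over all dim probe sets. Control replicate 2 read higher than control replicate 1 for 11 of the 16 and for 70.6% of all dim probe sets, and it is the array with the highest actin 3'/5' ratio and the highest 40th percentile. Whether that array's quality bears on the dim members was not tested.

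**Figure D4:**
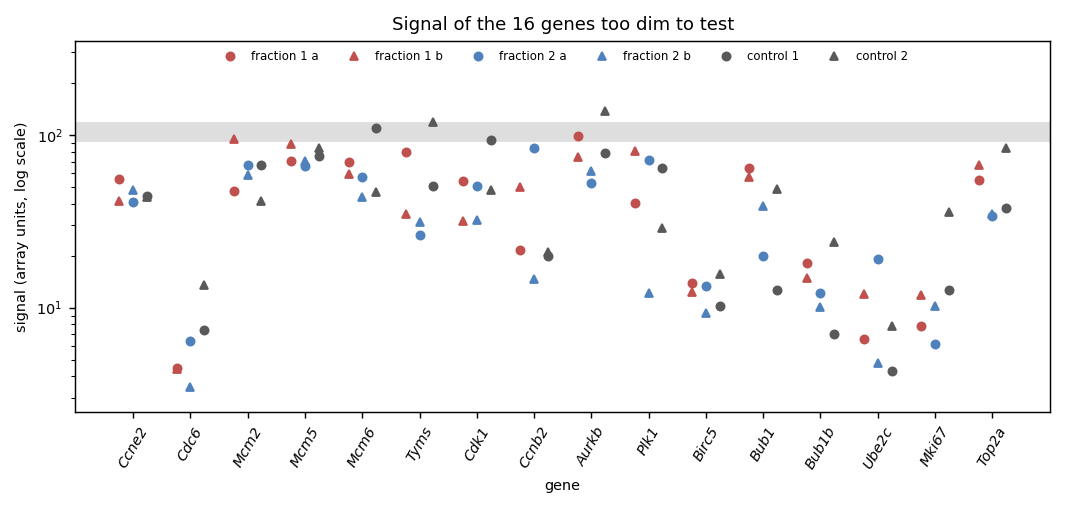
Signal (array units, log scale, vertical axis) of each of the 16 members too dim to test, on the 6 arrays, with genes along the horizontal axis and, for each, fraction 1 left, then fraction 2, then control. The grey band is the range of the 40th percentile over arrays, 92.5 to 116.3; only Mcm6 on control replicate 1 (109.1) and Tyms (118.2) and Aurkb (138.2) on control replicate 2 reached the percentile of their own array.

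The other lists of the pathway held 142 genes, of which 130 had a probe set and 88 were tested. Of these 1 rose in fraction 1 against control livers and 0 fell, where 0.712% of all tested probe sets passed in either direction. In fraction 2 against control livers and between the fractions 0 passed (0.108% and 0.0136% of all). Medians over the 88 were 0.03, 0.04 and 0.02 in the same order. The gene that rose was Gadd45b, a stress-induced gene linked to growth arrest and known to be induced early in regenerating liver. It read 431.5 and 526.6 in fraction 1 livers, 223.0 and 164.6 in fraction 2 livers, and 101.3 and 100.6 in control livers. Gadd45b had a log2 fold change of 2.08 ± 0.24 in fraction 1 against control livers (adjusted p = 0.0132 by limma) and 0.83 ± 0.24 in fraction 2 against control livers (adjusted p = 0.535). The adjusted p was 0.0579 without fraction 1 replicate a and 0.176 without replicate b, and a dimmer Gadd45b probe set gave -0.14.

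Of the CDK inhibitors, 5 of 7 were tested and 0 passed. Cdkn1a, the p21 inhibitor of Cdk2, read 229.4 and 106.2 in fraction 1 livers, 171.1 and 145.7 in fraction 2 livers, and 91.8 and 43.9 in control livers. All 4 fraction arrays lay above both controls, at a log2 fold change of 1.11 ± 0.44 in each comparison against control (adjusted p = 0.346 for fraction 1 and 0.673 for fraction 2 by limma). No control array reached the filter brightness, so Cdkn1a too was tested only because of the fraction arrays. The fraction 1 value was 0.60 without fraction 1 replicate a and 0.68 without control replicate 2, and the fraction 2 value was 0.69 without control replicate 2. Rbl2, the p130 pocket protein of quiescent cells, gave -0.59 in fraction 1 against control livers (adjusted p = 0.353), and 0.11 on its next brightest probe set. Of the RB and E2F family 7 of 12 listed genes were tested and of the other G1 cyclins and kinases 7 of 8, and 0 passed in any comparison.

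Of 40 further replication genes 26 were tested, with 0 passing in any comparison, beside 0.712%, 0.108% and 0.0136% of all tested probe sets. At these shares a count of 0 in this list or the next says little. The lowest p belonged to Mcm10, which helps to start the fork. It read 1528.3 and 1218.3 in fraction 1 livers, 1785.6 and 1895.8 in fraction 2 livers, and 2497.5 and 2714.2 in control livers, with no overlap between the groups. The log2 fold change was -0.92 ± 0.18 in fraction 1 against control livers (adjusted p = 0.0699 by limma) and -0.50 ± 0.18 in fraction 2 against control livers (adjusted p = 0.647). Of 40 further mitosis genes 17 were tested with 0 passing, among them Cks1b, a partner of Skp2 in degrading p27, at 0.44 and 0.62 in fraction 1 and fraction 2 against control livers (adjusted p = 0.364 and 0.535). The next brightest Cks1b probe set gave 0.13 and 0.14. Racgap1, which helps to place the cleavage furrow, gave 0.89 ± 0.29 in fraction 1 against fraction 2 livers (adjusted p = 0.500 by limma).

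The mitogen and immediate early lists had 0 genes past the threshold in any comparison among 8 and 10 tested. That says little beside shares of 0.712%, 0.108% and 0.0136% over all tested probe sets. Egfr, the receptor through which EGF drives hepatocyte division, read 983.7 and 1348.3 in fraction 1 livers, 1234.4 and 1179.8 in fraction 2 livers, and 2131.9 and 2384.0 in control livers. All 4 fraction arrays lay below both controls, at -0.96 ± 0.20 and -0.89 ± 0.20 (adjusted p = 0.0879 and 0.356 by limma). The next brightest Egfr probe set gave -1.58 in fraction 2 against control livers. Ier2, an immediate early gene, gave -0.88 in fraction 1 against control livers (adjusted p = 0.239), and -0.52 without control replicate 1. Myc was unstable between replicates, at 37.0 and 92.1 in fraction 1 livers, 103.0 and 71.3 in fraction 2 livers, and 182.2 and 31.1 in control livers.

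**Figure D5:**
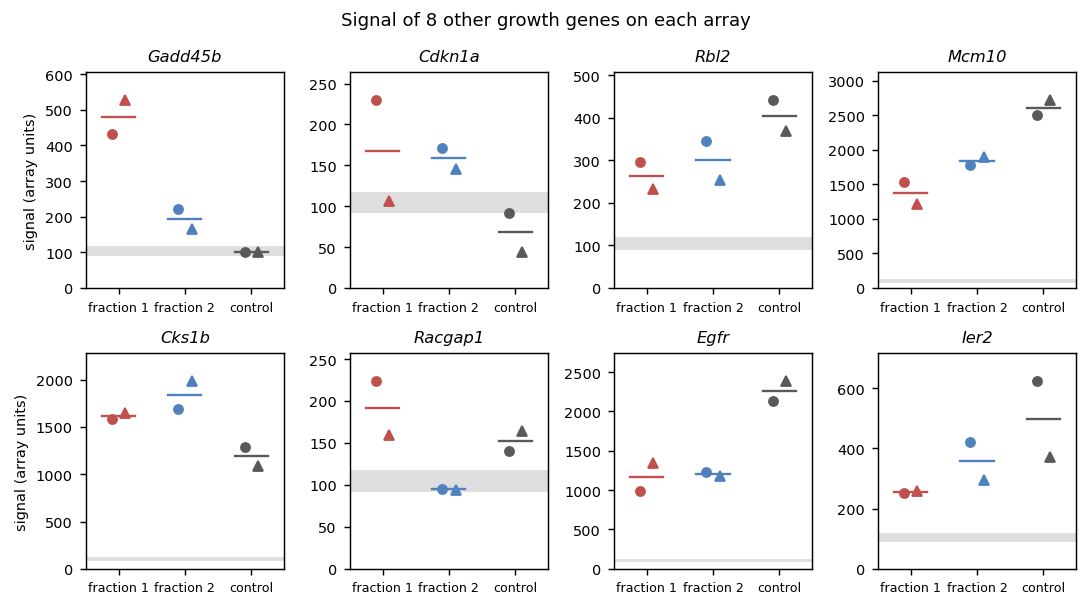
Signal (linear array units, vertical axis) of 8 pathway genes outside the list on each array, with fraction 1 left, then fraction 2, then control; circles and triangles are replicates and bars the group means, and the grey band the 40th percentile of the arrays. Gadd45b is the gene that passed the threshold, at 431.5 and 526.6 in fraction 1 livers and 101.3 and 100.6 in control livers.

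Other liver cells also divide and express these genes, so their markers stand beside the members. Marker sums here are linear and weighted to the brightest markers of each list, so they do not measure cell content. Stellate cell markers summed to 3049.0 to 3967.1 in fraction 1 livers, 4264.2 to 5470.4 in fraction 2 livers and 5508.8 to 6571.1 in control livers. Their brightest were Reln and Dcn, and Dcn overlapped between the groups (1746.3 and 1287.0 in fraction 1 livers, 3189.6 and 1372.5 in control livers). Of the 6 tested stellate markers 0 passed, with a median of -0.53 in fraction 1 against control livers. Endothelial markers summed to 1826.0 to 2337.1 in fraction 1 livers, 2468.8 to 2643.6 in fraction 2 livers and 2787.5 to 3342.7 in control livers (0 of 6 passing), and Kupffer cell markers to 7666.5 to 8350.8, 8442.8 to 8984.1 and 8650.1 to 9762.9 in the same order (0 of 9). Hepatocyte markers summed to 117492.7 to 129023.1 in fraction 1 livers, 104260.9 to 108983.9 in fraction 2 livers and 130708.9 to 149973.6 in control livers (0 of 7).

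Erythroid markers summed to 1985.8 to 3233.8 in fraction 1 livers, 2652.2 to 3719.5 in fraction 2 livers and 3875.6 to 4228.5 in control livers. In fraction 1 against control livers 0.712% of all tested probe sets passed, and 1 of the 4 tested erythroid markers did. It was Alas2, the first enzyme of erythroid heme synthesis, which fell in fraction 1 livers to 793.0 and 723.3, against 2243.8 and 2609.9 in control livers, and read 2656.1 and 1502.2 in fraction 2 livers. The log2 fold change was -1.66 ± 0.26 in fraction 1 against control livers (adjusted p = 0.0384 by limma), and without either control array or either fraction 1 array the adjusted p was 0.0542 to 0.281. The call was also lost under several other settings, among them quantile normalization (0.0518) and scan batch as a block (0.0576). The other 3 tested erythroid markers did not pass and lay on both sides of 0 in fraction 1 against control livers, with Klf1 at 0.21, Tfrc at 0.11 and Gata1 at -0.07, so the median of the 4 was 0.02. Lymphocyte markers (4 tested), neutrophil markers (5 tested) and bile duct markers (1 tested) had 0 passing. No marker was listed at 0. The stellate, endothelial and Kupffer cell sums were lower in both fraction 1 arrays than on all other arrays. Among the tested members Tk1, Ccnd1, Ccnd2, Ccne1 and Stmn1 showed this order, E2f1 showed the reverse, and the rest showed neither. The share of all probe sets with this order was not counted. Single markers were not uniform. In fraction 1 against control livers 1 of 6 tested stellate, 2 of 6 endothelial and 2 of 9 Kupffer cell markers lay above 0. The part of these cells in the members' values was not tested.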

How the data were processed

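Liver total RNA was measured on 6 Affymetrix arrays, 2 for each of fraction 1, fraction 2 and control diet, grouped by the sample titles. The deposited table holds 1 linear signal intensity per probe set and array. No detection calls came with it, and its summary software is not given in the sources used here. Trimmed by 2% at each end, the array means differed by 0.0059% at most, so the deposited intensities were used without further normalization. Scan batch (2) and chip lot (3) came from the authors' deposited experiment files. Precision is limited by the number of arrays.

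The table held 22690 probe sets, and its 64 Affymetrix controls were dropped. In the platform annotation 20393 probe sets had 1 gene symbol, 691 had several and 1606 had none, and 20364 symbols were matched to a gene table by Entrez ID, with 0 changed. Testing needed 2 or more of the 6 arrays at or above their own 40th percentile, and 14755 probe sets met this. Log2 of signal plus 16 was fitted over all 6 arrays in R 4.3.3 with limma 3.58.1 (lmFit, eBayes with a variance trend; 3 residual and 5.43 prior degrees of freedom), two-sided, with Benjamini-Hochberg adjustment over all tested probe sets and a threshold of 0.05. Fold changes on this scale understate the change of dim genes. Probe sets too dim to test are given as signals only.

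Per-array values are given for members with an unadjusted p under 0.05 in any comparison or with non-overlapping groups and a 2-fold change, and for Mki67, Top2a, Cdk1, Ccna2, Ccnd1, Mcm2, Mcm5, Pcna and Rrm2. From each other list the rule takes members past the threshold, or else up to 4 with the smallest p, and Cdkn1a, Myc and Gadd45b; the text gives a selection. The members and lists were chosen with earlier results of these data known. The labels do not say whether same-letter arrays of the fractions are pairs, and the reported fit did not pair them. Their deviations correlated at 0.03, which cannot settle this, since fraction 2 replicates a and b also differ in scan batch. With the letters as a block 75 probe sets passed between the fractions, against 2 without. The scan batch differences of fraction 2 and of control correlated at 0.296 over probe sets, and the reported fit has no batch term; fits with one are among the alternatives. On simulated data of fraction 1 against control (14755 probe sets, 5 draws) the procedure recovered 40.8% of 2-fold and 95.2% of 4-fold changes, with 6.46% false calls. The simulated noise was independent and normal, with no batch or array difference, and the changed probe sets were picked from all tested ones. Alternatives were other scalings, pseudocounts of 1 and 64, no variance trend, no filter or a 60th-percentile filter, scan batch or chip lot as a block, batch 1 alone, the compared groups alone, the next brightest probe set and each array left out. Promoters are RefSeq's (GRCm38.p6). Figures used Python 3.11.15 and matplotlib 3.10.9.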

Additional observations from a re-analysis of the deposited data

Results flagged for a closer look

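Ccnd1 lay on opposite sides of control in the 2 fractions: both fraction 1 arrays (563.6 and 558.1) were below both control arrays (770.4 and 798.6), and both fraction 2 arrays (806.3 and 885.2) were above them. The log2 fold change between the fractions was -0.58 (unadjusted p = 0.0112, adjusted p = 0.475 by limma), so the difference failed the correction. Of the 14755 tested probe sets, 335 (2.27%) had the fractions on opposite sides of both controls, 163 of them (1.1%) with fraction 1 lower and fraction 2 higher. The second Ccnd1 probe set gave -0.36 between the fractions and the third 0.10, and neither showed this placement. On the second, fraction 2 overlapped control, at 0.03 against it. On the third, both fraction 2 arrays lay below both controls, at -0.25, and fraction 1 overlapped control. No group was large enough to look for single outlying arrays.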

How the results depend on the processing

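The count of members past the threshold stayed at 0 under all 18 alternatives for each fraction against control and all 19 between the fractions; the lowest adjusted p of a member was 0.0593, for fraction 1 against control with scan batch as a block. The members' median log2 fold change in fraction 1 against control livers (-0.09) was 0.01 with no filter and with the next brightest probe sets, -0.41 with the filter at the 60th percentile, -0.17 with scan batch or chip lot as a block, -0.22 in batch 1 alone, and -0.22 to 0.01 with 1 array left out. In fraction 2 against control livers (-0.04) the members' median was 0.06 after quantile normalization, 0.07 after centring, -0.13 with no filter, 0.03 at the 60th percentile, -0.16 in batch 1 alone, and -0.17 to 0.04 with 1 array left out. Centring moved the median of all probe sets to 0.07, against -0.04. That median was -0.07 with no filter, -0.01 at the 60th percentile and -0.06 in batch 1 alone. Between the fractions (-0.01) the members' median was -0.10 after centring, 0.08 with no filter, -0.18 at the 60th percentile, -0.14 with scan batch or chip lot as a block, -0.07 in batch 1 alone, and -0.15 to -0.01 with 1 array left out. Over all probe sets it was -0.07 after centring, 0.05 with no filter, -0.01 at the 60th percentile and 0.0 in batch 1 alone. With the replicate letters as a replicate block, 0 members passed, their median was -0.01, and 75 probe sets passed in all, against 2 without the block. The count over all probe sets ranged from 12 to 149 (105 as reported), 2 to 28 (16) and 0 to 75 (2). Of 689 values of 21 genes, 655 kept their direction and side of the threshold, 14 lost it, 1 passed it and 19 changed direction. In fraction 1 against control livers those were Ccnd2 (0.03), Rbl2 (0.11) and Gadd45b (-0.14) with the next brightest probe set, Ccna2 (-0.39 to 0.21 with 1 array left out), and Myc (0.28 with scan batch as a block, 0.68 in batch 1, -1.39 to 0.68 with 1 array left out). In fraction 2 against control livers they were Ccna2 (0.06 after quantile normalization, 0.07 after centring, 0.20 with chip lot as a block, -0.35 to 0.25 with 1 array left out), Myc (-0.03 with a pseudocount of 64, -0.54 with chip lot as a block, -0.96 to 1.11 with 1 array left out), Stmn1 (-0.16 to 0.30 with 1 array left out) and Gadd45b (-0.38 with the next brightest probe set). The Gadd45b rise in fraction 1 livers missed the threshold with no filter (adjusted p = 0.0560 by limma) and no variance trend (0.0540), and Alas2 missed it under 10 alternatives (0.0518 to 0.281); the cause was not tested. Of the 35 members 16 were too dim to test. On simulated data of fraction 1 against control 40.8% of 2-fold and 95.2% of 4-fold changes were recovered, and smaller changes were not simulated. Those rates are for probe sets picked from all tested ones, with independent noise, and need not hold for the members. In that comparison the SE of the tested members ran from 0.18 (Ccnd1) to 0.43 (Aurka), beside a median of 0.25 over all tested probe sets.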
